A study of Mus musculus with 6 samples.

Results

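Genes for stromal matrix proteins and fibroblast markers were examined in primary mammary epithelial cells and in JNK-deficient mammary tumor cell lines. The 10 genes are *Thy1*, *Dcn*, *Lum*, *Bgn*, *Fbn1*, *Sparc*, *Postn*, *Fap*, *Lox* and *Pdgfrb*. Each was taken as the entry of the expression table whose gene name is that symbol, and all 10 were found among 37753 entries with values, each on an entry of its own. Expression is given as FPKM, fragments per kilobase of transcript scaled to the size of the library. FPKM is a relative measure, so comparing levels between libraries assumes that this scaling suits each of them. Other scalings are given at the end.

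The first group, MEC, has 3 preparations of primary mammary epithelial cells of genotype WAPCre+ and strain C57/Bl6J. Glands from 3 to 5 virgin female mice, 10 to 12 weeks old, went into each preparation, which was grown on collagen I with 5% fetal calf serum, EGF and insulin, and gave RNA near confluence. The second group, ME-KO, has the tumor cell lines 199, 233 and 336 of genotype Mapk8KO Mapk9KO Cre+ on the same strain. In the source list of tumors, mouse 199 bore adenosquamous carcinoma, mouse 336 adenocarcinoma and mouse 233 both, so the lines may differ in histology. The labels do not tie each line to the mouse of its number, and histology was not used here. *Mapk8* and *Mapk9* encode the JNK1 and JNK2 kinases. Cre recombinase, which both groups carry, is driven by the *Wap* promoter, which is active in luminal epithelial cells during lactation. The tumors were dispersed with collagenase, and the cells spent 2 passages on collagen I before standard dishes. The paper describes tumors of this genotype as coming from parous mice, mated at 10 to 12 weeks and watched for tumors after weaning. The tumor-bearing mice were therefore older than the virgin MEC donors. Each library is 1 preparation or 1 line. The groups differ at once in genotype, tumor origin, parity, age of the mice, medium and length of culture, and these factors cannot be told apart.

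In the mammary gland, fibroblasts in the tissue around the ducts make most of the interstitial matrix, and basal myoepithelial cells add to it at the basement membrane. Collagen fibrils are spaced by small leucine-rich proteoglycans and joined by lysyl oxidases, elastic fibers form on fibrillin microfibrils, and matricellular proteins regulate how cells attach to the whole. Fibroblasts and pericytes are commonly recognized by surface proteins such as Thy1, fibroblast activation protein and the PDGF receptors. Epithelial cells, myoepithelial cells above all, can also express many of these genes.

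The 10 genes fell into 2 patterns over the lines. Lines 233 and 336 were below all 3 MEC preparations for all 10 genes. Line 199 was above all 3 MEC for *Bgn*, *Fbn1*, *Sparc*, *Lox* and *Pdgfrb*, within their range for *Postn*, and below it for *Dcn*, *Lum*, *Thy1* and *Fap*. The FPKM values of the 10 genes summed to 863, 938 and 927 in the MEC preparations, to 1669 in line 199, to 84.4 in line 233 and to 102 in line 336. Line 199 was the highest of the lines for 9 of the 10 genes, and *Dcn* was the exception, while line 199 was the highest of the lines for 40% of the tested entries described next. In bulk RNA, fewer cells of a type and less RNA per cell cannot be told apart.

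These positions were set beside those of all 12461 entries with a mean FPKM of at least 1 over the 6 libraries, the entries that were tested. Of the 10 genes, 8 passed this filter, and *Lum* and *Fap* did not. Line 233 was below all 3 MEC for 37.9% of tested entries and above them for 37.4%. For line 336 the shares were 37.4% below and 39.2% above, and for line 199 they were 39.1% below and 40.2% above. The pattern in which lines 233 and 336 lay below all 3 MEC while line 199 did not was seen in 6 of the 8 tested genes and in 8.11% of all tested entries. It was chosen after the values were seen.

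**Figure D1:**
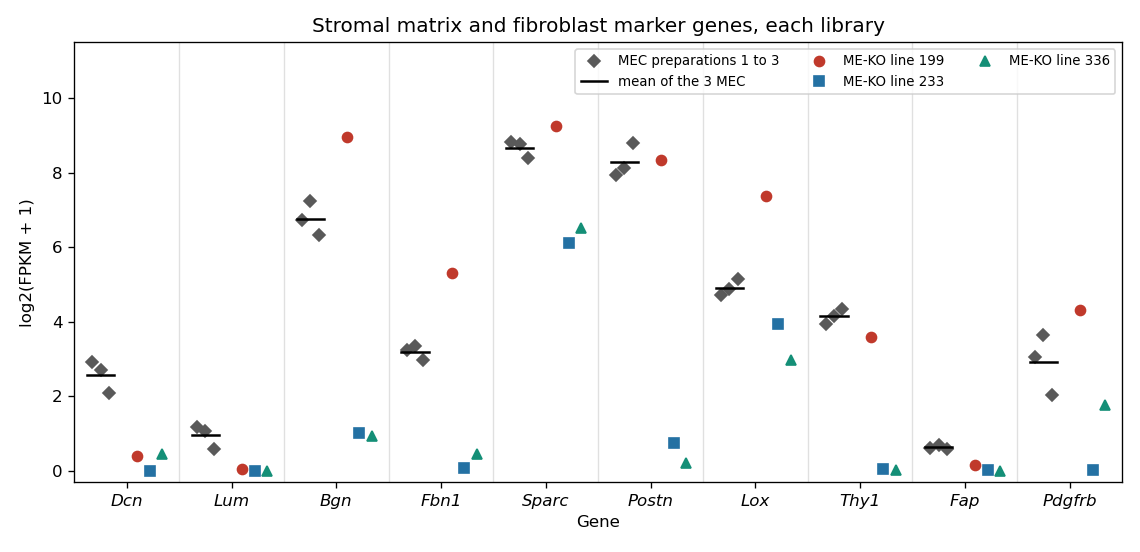
Expression of the 10 stromal matrix and fibroblast marker genes in each library, as log2(FPKM + 1). Gray diamonds are the MEC preparations with their mean as a bar, and colored symbols are the ME-KO lines. Lines 233 and 336 lie below the MEC preparations for every gene, while line 199 (red) lies above them for *Bgn*, *Fbn1*, *Sparc*, *Lox* and *Pdgfrb*.

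RNA levels of the deleted genes were read first. FPKM per gene cannot show whether the deleted stretch is absent. *Mapk8* was at 23.1, 25.1 and 19.2 FPKM in the MEC preparations and at 5.93, 3.12 and 1.37 in lines 199, 233 and 336. *Mapk9* was at 24.4, 21.5 and 22.1 FPKM in MEC and at 7.62, 3.15 and 3.07 in the lines. Both genes were lower in every line than in every MEC preparation, and both were called lower by the test described next (log2 fold change -2.52 and -2.17; limma adjusted p = 0.0146 and 0.0122).

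Between the groups as a whole, 1 of the 8 tested genes passed the limma test, made on log2(FPKM + 1) with Benjamini-Hochberg adjustment over all tested entries. A gene was called differentially expressed at an adjusted p under 0.05 with a log2 fold change beyond 0.75. The gene called was *Dcn*, which was lower in ME-KO, and no member was called higher. *Dcn* was under 1 FPKM in every line and passed the expression filter through MEC alone, so it could only be called lower. Of all tested entries, 7.26% were called lower and 2.64% were called higher. The spread among the lines was wide for the other genes. The SD of log2(FPKM + 1) over the 3 lines was at least 1.5, a limit chosen after the values were seen, in 7 of the 8 tested genes and in 4.67% of all tested entries. Its median over all tested entries was 0.33 for the lines and 0.18 for MEC.

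With line 199 left out, the comparison of lines 233 and 336 with the 3 MEC called 7 of the 8 tested genes lower, *Pdgfrb* being the exception. In that comparison 10.8% of all tested entries were called lower. Those calls rest on 2 lines. The expression filter stayed on the mean of all 6 libraries. *Dcn*, *Fbn1*, *Postn* and *Thy1* were under 1 FPKM in lines 233 and 336, and *Bgn* was at 1.01 and 0.905. These genes passed the filter through the other libraries, so here they could only be called lower. Line 199 had already been seen to stand above the other lines for most of these genes, so the calls add no separate support. Without line 233, or without line 336, 1 of the 8 was called lower.

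**Figure D2:**
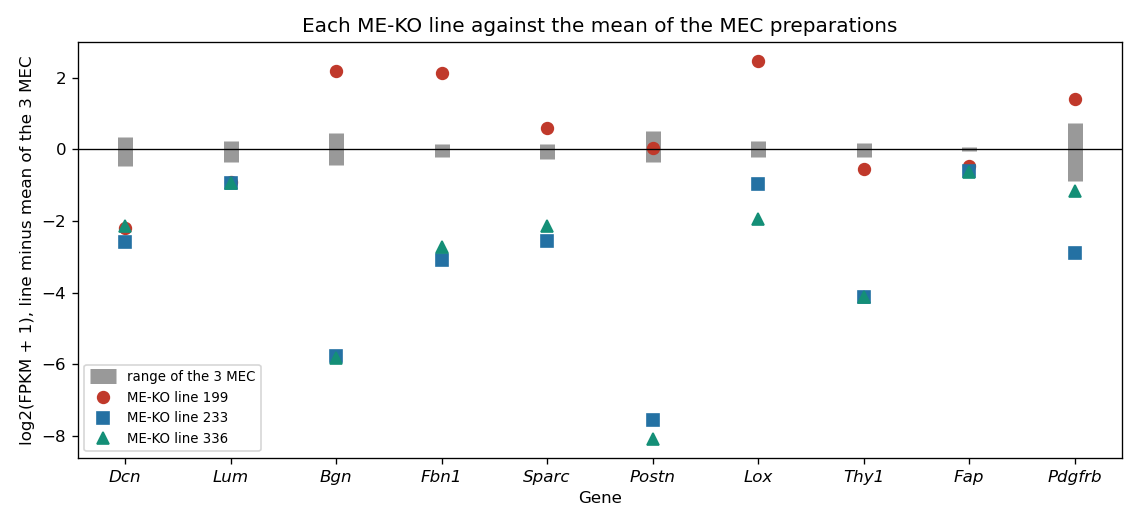
Difference of each ME-KO line from the mean of the 3 MEC preparations on the log2(FPKM + 1) scale, for each gene. Gray bars span the MEC preparations. The 3 lines lie close together for *Dcn*, *Lum* and *Fap*, while for *Bgn* and *Postn* line 199 stands apart from the other lines by more than the range of MEC.

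*Dcn*, *Lum* and *Bgn* encode decorin, lumican and biglycan, small leucine-rich proteoglycans that bind collagen fibrils. *Dcn* (chr10:97479609-97518143, plus strand, GRCm38) was at 6.62, 5.48 and 3.29 FPKM in MEC. It was at 0.311 in line 199, listed at 0 in line 233 and at 0.366 in line 336. All 3 lines lay below the lowest MEC preparation. The log2 fold change was -2.30 ± 0.30 (SE, n = 3 and 3; limma adjusted p = 0.00821). The exact permutation test (two-sided) gave p = 0.1, the smallest that 3 against 3 allows.

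*Lum* (chr10:97565128-97572703, plus strand) lies next to *Dcn* on the chromosome and was expressed at a far lower level. It was at 1.28, 1.11 and 0.507 FPKM in MEC, at 0.0264 in line 199 and listed at 0 in lines 233 and 336. The groups did not overlap (exact permutation p = 0.1, two-sided). Its mean was under the expression filter. With no filter, limma gave a log2 fold change of -0.94 ± 0.16 (SE) and an adjusted p of 0.0329. *Dcn* and *Lum* were thus low in line 199 too.

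*Bgn* (chrX:73483602-73495933, plus strand) followed the other pattern. It was at 105, 149 and 79.0 FPKM in MEC, at 498 in line 199, and at 1.01 and 0.905 in lines 233 and 336. Line 199 was at 4.48 times the MEC mean, and lines 233 and 336 were at 0.907% and 0.814% of it. Line 199 exceeded the higher of the other lines 494-fold. The log2 fold change over the groups was -3.13 ± 2.12 (SE), with a 95% interval from -8.23 to 1.98 (limma adjusted p = 0.375). Without line 199 it was -5.79 (adjusted p = 0.00131), whereas without line 233 or line 336 it was -1.82 or -1.78 and was not called.

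The bases just upstream of *Bgn* and *Postn* are shown because these genes had the largest spread over the lines, with an SD of 4.62 and 4.55 on the log2(FPKM + 1) scale. The reference sequences are RefSeq promoter windows on GRCm38.p6, both on the plus strand, at chrX:73483351-73483600 for *Bgn* and chr3:54360857-54361106 for *Postn*, and each ends just before a transcript start. Capitals mark TATAAA, the TATA box letters, a search added after the sequences were seen.
Bgn: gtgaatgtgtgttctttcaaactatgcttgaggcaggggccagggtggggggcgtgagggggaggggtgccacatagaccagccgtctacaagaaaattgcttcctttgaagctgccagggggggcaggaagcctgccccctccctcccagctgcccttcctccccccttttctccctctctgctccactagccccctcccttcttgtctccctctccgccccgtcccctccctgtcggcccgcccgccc
Postn: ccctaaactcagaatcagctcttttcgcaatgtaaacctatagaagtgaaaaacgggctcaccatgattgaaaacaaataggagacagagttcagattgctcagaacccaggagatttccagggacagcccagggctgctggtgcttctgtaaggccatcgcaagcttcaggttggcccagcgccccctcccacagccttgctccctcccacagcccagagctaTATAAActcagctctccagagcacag

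The *Postn* window holds TATAAA from 26 to 21 bases before the start, and the *Bgn* window does not hold these letters on either strand. TATAAA was found on either strand in 12.4% of 32851 promoter windows of 250 bases. The letters TGANTCA, bound by AP-1 factors, the transcription factors that JNK phosphorylates, were in neither window and in 6.75% of all windows. GGAATG (TEAD factors) was in neither window and in 12.6% of all, and GTCTG (Smad factors) was in neither and in 42.2% of all. Such matches describe letters only. Windows were matched for 4 of the 10 genes. *Postn* has another window farther upstream (chr3:54359017-54359266), not shown, which holds CAGAC, the reverse complement of GTCTG. The windows of *Fbn1* and *Sparc* share 250 and 238 of their 250 bases with annotated exons and are not shown, and that of *Sparc* holds GTCTG.

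*Fbn1* (chr2:125300594-125507993, minus strand) encodes fibrillin-1, the main protein of microfibrils. It was at 8.43, 9.18 and 6.81 FPKM in MEC, at 38.8 in line 199, and at 0.0608 and 0.379 in lines 233 and 336. Line 199 was at 4.77 times the MEC mean and exceeded the higher of the other lines 103-fold. The groups overlapped, and the log2 fold change was -1.23 ± 1.34 (SE; limma adjusted p = 0.578). Without line 199 it was -2.91 (adjusted p = 0.00257), without line 233 it was -0.29 and without line 336 it was -0.48, the last 2 not called. Exons of *Gm9913* on the opposite strand cover 20.1% of the exonic bases of *Fbn1*, and whether reads were counted by strand is not given in the sources used here.

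*Sparc* and *Postn* encode osteonectin and periostin, matricellular proteins that bind collagen, periostin also being a ligand of integrins. *Sparc* (chr11:55394500-55423183, minus strand) had the highest mean level of the 10 genes. It was at 451, 437 and 335 FPKM in MEC, at 615 in line 199, and at 68.3 and 91.3 in lines 233 and 336. Lines 233 and 336 thus kept 16.7% and 22.4% of the MEC mean, while line 199 was at 1.51 times it. Over the groups the log2 fold change was -1.36 ± 0.80 (SE; limma adjusted p = 0.311), and without line 199 it was -2.34 (adjusted p = 0.00342). It was -0.76 without line 233 and -0.97 without line 336, neither of them called.

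*Postn* (chr3:54361109-54391037, plus strand) was also high in MEC, at 243, 279 and 445 FPKM. It was at 321 in line 199, and at 0.667 and 0.149 in lines 233 and 336. Line 199 lay inside the range of MEC, and lines 233 and 336 were at 0.207% and 0.0461% of the MEC mean. The log2 fold change was -5.20 ± 2.09 (SE), with a 95% interval from -10.23 to -0.16 and an adjusted p of 0.168 (limma). Without line 199 it was -7.82 (adjusted p = 0.00105). It was -4.02 without line 233 and -3.75 without line 336, neither of them called.

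*Lox* (chr18:52516067-52529867, minus strand) encodes lysyl oxidase, which joins collagen and elastin chains. It was at 25.2, 28.4 and 34.7 FPKM in MEC, at 165 in line 199, and at 14.4 and 6.91 in lines 233 and 336. The log2 fold change over the groups was -0.15 ± 1.07 (SE; limma adjusted p = 0.946), a mean of lines on both sides of MEC. Line 199 was at 5.62 times the MEC mean, whereas lines 233 and 336 were at 48.8% and 23.5% of it. Without line 199 the log2 fold change was -1.45 (adjusted p = 0.0403), without line 233 it was 0.27 and without line 336 it was 0.74.

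*Thy1* and *Fap* encode surface proteins by which fibroblasts are recognized, a GPI-anchored glycoprotein and a serine protease. *Thy1* (chr9:44043384-44048579, plus strand) was at 14.3, 17.0 and 19.2 FPKM in MEC, at 11.1 in line 199, and at 0.0287 and 0.0133 in lines 233 and 336. No line reached the lowest MEC preparation (exact permutation p = 0.1, two-sided). Line 199 kept 65.9% of the MEC mean, and the other lines kept 0.170% and 0.0787%. The log2 fold change was -2.93 ± 0.96 (SE; limma adjusted p = 0.109), and without line 199 it was -4.12 (adjusted p = 0.00122). It was -2.34 without line 233 and -2.33 without line 336, neither of them called.

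*Fap* (chr2:62500943-62574075, minus strand) was low in every library. It was at 0.537, 0.633 and 0.507 FPKM in MEC, at 0.124 in line 199, at 0.0185 in line 233 and listed at 0 in line 336. The groups did not overlap (exact permutation p = 0.1, two-sided). With no expression filter the log2 fold change was -0.57 ± 0.07 (SE) with an adjusted p of 0.011 (limma), short of the fold-change limit. A decrease could not have reached that limit from these MEC levels. Line 336, listed at 0, differed from MEC by only -0.64 on the log2(FPKM + 1) scale. Over the whole set, 4 genes (*Dcn*, *Lum*, *Thy1* and *Fap*) had groups that did not overlap, 2 of them among the 8 tested. All 3 lines lay below all 3 MEC for 18.7% of tested entries and above them for 18.5%.

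*Pdgfrb* (chr18:61045150-61085061, plus strand) encodes PDGF receptor beta, a tyrosine kinase that marks pericytes and fibroblasts. It was at 7.37, 11.6 and 3.11 FPKM in MEC, at 19.0 in line 199, and at 0.0168 and 2.40 in lines 233 and 336. It varied most among the MEC preparations, 3.71-fold from lowest to highest, and was the member for which lines 233 and 336 differed most on the log2 scale. Its log2 fold change over the groups was -0.88 ± 1.06 (SE; limma adjusted p = 0.62). Without line 199 it was -2.02 (adjusted p = 0.115), and without line 233 it was 0.13.

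Of 5 tested genes for PDGF ligands and receptors besides *Pdgfrb*, 3 ligands were called lower, beside 7.26% of all tested entries. *Pdgfb* was at 84.8, 106 and 63.9 FPKM in MEC and at 25.5, 14.7 and 20.6 in lines 199, 233 and 336 (log2 fold change -2.02 ± 0.27, SE; limma adjusted p = 0.00913). *Pdgfd* fell by 2.30 (SE 0.24, adjusted p = 0.00408) and *Pdgfc*, a ligand of the alpha receptor, fell by 1.79 (SE 0.32, adjusted p = 0.0215), both on the log2 scale. *Pdgfa* was not called, at 40.8, 50.3 and 40.6 FPKM in MEC and at 64.9, 44.2 and 72.4 in the lines. *Pdgfra*, the alpha receptor and a fibroblast marker, was at 0.686, 0.769 and 0.949 FPKM in MEC and at 1.31, 0.622 and 0.423 in the lines, under the expression filter.

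Further matrix and stromal genes were read from 8 lists written by hand, together 114 genes apart from the 10, of which 113 were in the table and 88 were tested. Of these 88, 15 were called lower and 2 were called higher, beside 7.26% and 2.64% of all tested entries. Their median log2 fold change was -1.05, against 0.01 over all tested entries. The median difference from MEC on the log2 scale was 0.29 in line 199, and -1.91 and -1.70 in lines 233 and 336. Lines 233 and 336 lay below all 3 MEC while line 199 did not in 41 of the 88 genes, beside 8.11% of all tested entries. Of the 15 genes called lower, *Pdgfd*, *Eln*, *Col14a1*, *Adamts3*, *Sparcl1*, *Spon2* and *Heyl* were under 1 FPKM in every line. *Prelp* and *Col15a1* were above 1 FPKM in line 199 only, and their ME-KO means were 0.546 and 0.611. All these genes passed the expression filter through MEC alone and could only be called lower.

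Stromal collagens, among them the chains of the fibrils to which the proteoglycans bind, made up a list of 12. All were tested, and all 12 were below all 3 MEC in lines 233 and 336, while 9 were above all 3 MEC in line 199. Of all tested entries, 37.9% and 37.4% were below in lines 233 and 336, and 40.2% were above in line 199. Their summed FPKM was 202, 278 and 170.1 in MEC, 1306 in line 199, and 4.38 and 14.4 in lines 233 and 336. *Col1a1*, a chain of type I collagen, was at 54.2, 74.7 and 44.2 FPKM in MEC and at 599.7, 1.08 and 0.566 in lines 199, 233 and 336. *Col3a1*, the chain of type III collagen, was at 36.0, 57.6 and 16.5 FPKM in MEC and at 71.5, 0.0603 and 0.0738 in the lines. The 2 collagens called were *Col14a1* (log2 fold change -1.65 ± 0.27, SE; limma adjusted p = 0.0164) and *Col15a1* (-2.55 ± 0.41; adjusted p = 0.0164). Both are found beside fibrils or basement membranes rather than as their main chains, and both were lower in line 199 as well, at 0.00276 and 1.66 FPKM.

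Of 22 tested genes for collagen processing and cross-linking besides *Lox*, 2 were called lower and 1 was called higher. The shares of all tested entries were 7.26% and 2.64%. The genes that were lower were *Adamts3*, a procollagen N-proteinase, and *Bmp1*, a procollagen C-proteinase, with log2 fold changes of -1.97 ± 0.25 (SE; limma adjusted p = 0.00807) and -1.22 ± 0.29 (adjusted p = 0.0487). *Loxl4*, a relative of *Lox*, was higher in all 3 lines, at 10.7, 46.9 and 15.7 FPKM against 2.67, 2.84 and 1.91 in MEC (log2 fold change 2.61 ± 0.51; adjusted p = 0.0279). Line 199 was the lowest of the lines for *Loxl4* and the highest for *Lox*. In line 199, 15 of the 22 were above all 3 MEC, beside 40.2% of all tested entries. In lines 233 and 336, 18 were below, beside 37.9% and 37.4% of all tested entries.

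Of 14 tested matricellular genes besides *Sparc* and *Postn*, 3 were called lower, beside 7.26% of all tested entries. *Spon2*, which encodes spondin 2, changed by -2.97 ± 0.40 on the log2 scale (SE; limma adjusted p = 0.0092). *Tnc*, which encodes tenascin C, was at 367, 299.9 and 443 FPKM in MEC and at 157, 39.8 and 37.0 in lines 199, 233 and 336 (adjusted p = 0.0378). *Sparcl1*, a relative of *Sparc*, was at 8.46, 8.01 and 1.25 FPKM in MEC and no higher than 0.0163 in any line (adjusted p = 0.0426). Line 199 was above all 3 MEC for 3 of these 14 genes and below for 9, beside 40.2% and 39.1% of all tested entries.

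The other lists held few calls. *Eln*, which encodes elastin, was the 1 gene called among 12 tested elastic fiber genes besides *Fbn1*, at 2.65, 2.90 and 3.64 FPKM in MEC, 0.0772 and 0.0388 in lines 199 and 233, and listed at 0 in line 336 (log2 fold change -1.96 ± 0.23, SE; limma adjusted p = 0.00563). *Prelp* was the 1 gene called among 3 tested proteoglycans besides the members (-2.07 ± 0.39; adjusted p = 0.0262). Of 12 tested surface proteins besides *Thy1* and *Fap*, *Mme* (-3.99 ± 0.67; adjusted p = 0.0179) and *Mcam* (-3.80 ± 0.42; adjusted p = 0.00484) were lower. *Mme* is also made by myoepithelial cells, and *Mcam* also by endothelium and pericytes. Of 8 tested mesenchymal transcription factors, *Heyl*, a Notch target, was lower (-1.85 ± 0.34; adjusted p = 0.0238). *Prrx2*, a homeobox gene, was higher, at 13.5, 30.3 and 31.7 FPKM in lines 199, 233 and 336 against 0.478, 0.640 and 1.45 in MEC (3.76 ± 0.38; adjusted p = 0.00371). In line 199, 6 of the 8 factors were above all 3 MEC, beside 40.2% of all tested entries.

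**Figure D3:**
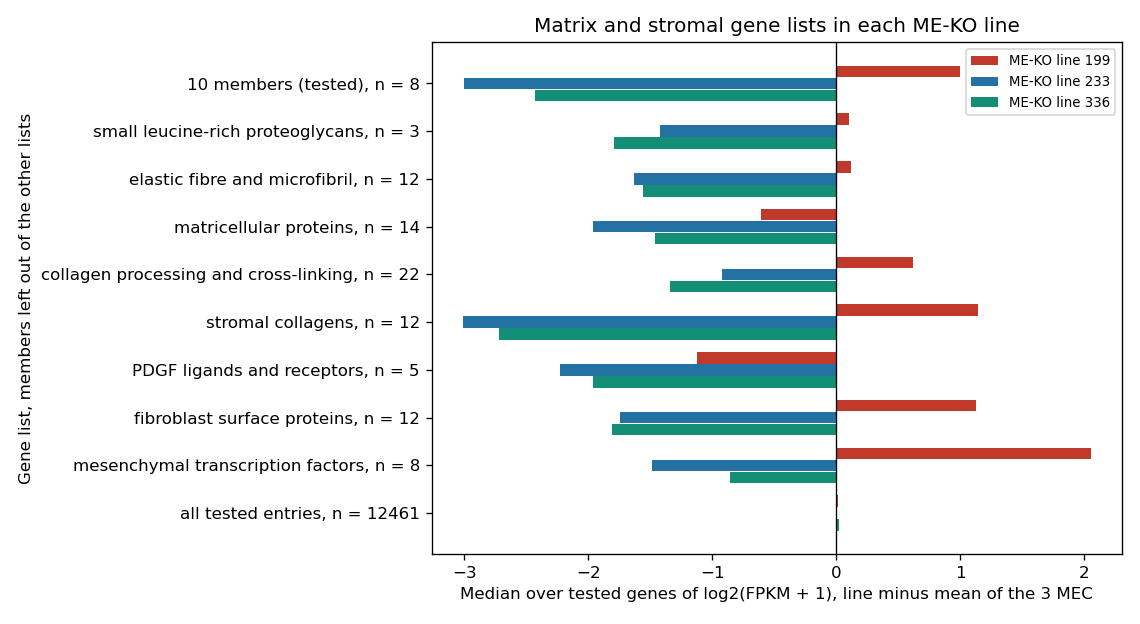
Median difference of each ME-KO line from the MEC mean on the log2(FPKM + 1) scale, over the tested genes of each list, with n genes given. For the stromal collagens the medians are 1.14 in line 199, and -3.01 and -2.72 in lines 233 and 336, whereas for matricellular proteins and the PDGF list the median is below 0 in every line.

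Markers of cell types were read beside these results. Summed FPKM of 16 fibroblast markers, 2 of them members, was 215, 283 and 189 in MEC, 1523 in line 199, and 108 and 211 in lines 233 and 336. *Gsn*, which encodes the actin-severing protein gelsolin and is not restricted to fibroblasts, made up most of that sum in lines 233 and 336, at 104 and 206 FPKM. It was called higher in ME-KO (log2 fold change 2.16 ± 0.38, SE; limma adjusted p = 0.0201), while *Dcn* was the 1 fibroblast marker called lower. In line 199 most of the sum was *Col1a1*, *Col1a2* and *Serpinf1*, at 599.7, 408 and 271 FPKM. Of the 10 tested fibroblast markers, line 199 was above all 3 MEC for 6, within their range for 2 and below for 2. Of all tested entries, 40.2% were above and 39.1% below in line 199. The 13 pericyte and smooth muscle markers summed to 1861, 2473 and 1271 in MEC, 953 in line 199, and 10.1 and 15.3 in lines 233 and 336, most of it in MEC and line 199 from *Acta2* and *Tagln*, which myoepithelial cells also express. *Rgs5*, the pericyte marker, was between 0.729 and 2.43 FPKM in MEC and no higher than 0.0392 in any line.

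Markers of cells outside the epithelium and mesenchyme were low beside those of the epithelium. The 11 endothelial markers summed to 28.8, 35.2 and 4.52 FPKM in MEC and to 9.41, 4.46 and 9.78 in lines 199, 233 and 336. Most of the sum in the lines was *Egfl7*, at 8.98, 4.24 and 7.46 FPKM, above all 3 MEC in each line and on an entry joined with other genes. *Pecam1* was at 4.88, 6.30 and 0.784 FPKM in MEC and no higher than 0.249 in any line, and *Cdh5* was at 5.38, 4.90 and 0.586 in MEC and no higher than 0.177 in any line. The 13 leukocyte markers summed to 31.4, 35.4 and 56.5 in MEC and to 1.11, 3.14 and 25.0 in the lines. Most of the sum in line 336 was *Cd68*, at 23.5 FPKM and above all 3 MEC. *Ptprc* was between 0.190 and 0.399 in MEC and at most 0.0146 in the lines. Of the 6 leukocyte markers tested, 4 were called lower, and these 4 passed the expression filter through MEC alone. The adipocyte markers *Adipoq* and *Plin1* were listed at 0 in all 3 MEC preparations, and *Plin1* was listed at 0 in every line as well. MEC preparation 3 was the lowest MEC preparation for 7 of the 10 genes, and also for the summed fibroblast, pericyte and smooth muscle, endothelial, adipocyte, luminal and basal markers, but not for leukocyte markers. The part of these cell types in the levels of the 10 genes was not tested.

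Of 12 luminal markers, 7 were called lower, beside 7.26% of all tested entries, and all 12 had a lower mean in ME-KO. *Epcam* was at 539, 519 and 549 FPKM in MEC and at 252, 144 and 128 in lines 199, 233 and 336, and *Cdh1*, which encodes E-cadherin, was at 259, 294 and 319 in MEC and at 102, 71.1 and 104 in the lines. *Krt8*, a luminal keratin, was at 2547, 3406 and 1844 FPKM in MEC and at 230.1, 539 and 447 in the lines. These 3 genes were called lower (limma adjusted p = 0.0154, 0.00571 and 0.0106), and no line had any of them under 71.1 FPKM. Others were near 0 in the lines. *Elf5*, a luminal transcription factor, was at 31.5, 32.8 and 44.3 FPKM in MEC and no higher than 0.461 in any line. *Kit* was between 9.90 and 14.9 in MEC and no higher than 0.129 in any line. Both passed the expression filter through MEC alone. *Krt19*, another luminal keratin, was at 804, 1057 and 356 FPKM in MEC and at 7.93, 26.8 and 17.6 in the lines. The luminal genes not called were *Krt18*, *Cldn3*, *Cldn4*, *Cldn7* and *Esrp1*. In line 336, *Cldn3* was above all 3 MEC, at 357 FPKM, and *Cldn4* was within their range, at 767. *Esrp1* was at 59.3, 55.2 and 57.9 FPKM in MEC and at 53.4, 41.7 and 45.9 in lines 199, 233 and 336. The basal keratin gene *Krt14* was at 460, 393 and 289 FPKM in MEC, 521 in line 199, and 7.36 and 24.0 in lines 233 and 336. *Krt5* was at 435, 339 and 201 in MEC and at 608, 1.33 and 15.3 in the lines. Line 199 was above all 3 MEC for these keratin genes and within their range for *Krt17*, at 394 FPKM. Of all 11 basal markers, line 199 was above MEC for 3, within for 2 and below for 6. The third above was *Trp63*, at 15.6 FPKM in line 199 against 10.6, 11.3 and 7.94 in MEC. Of the 6 below, *Acta2*, *Itgb4* and *Cnn1* were at 65.2%, 71.1% and 28.0% of the MEC mean in line 199. *Oxtr*, the oxytocin receptor, was between 5.05 and 25.9 FPKM in MEC and at 0.0125 in line 199, and *Mylk*, the myosin light chain kinase, was between 7.96 and 12.0 in MEC and at 0.714 in line 199. *Myh11*, the smooth muscle myosin of myoepithelial cells and pericytes, was at 32.7, 41.8 and 22.4 FPKM in MEC and no higher than 0.0812 in any line (limma adjusted p = 0.000715). *Oxtr*, *Mylk* and *Myh11* passed the expression filter through MEC alone. Line 233 was below all 3 MEC for 10 of the 11 basal markers and within their range for *Itgb4*, at 63.3 FPKM. Line 336 was below for all 11, with *Trp63* at 4.47 FPKM there and at 0.0633 in line 233.

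**Figure D4:**
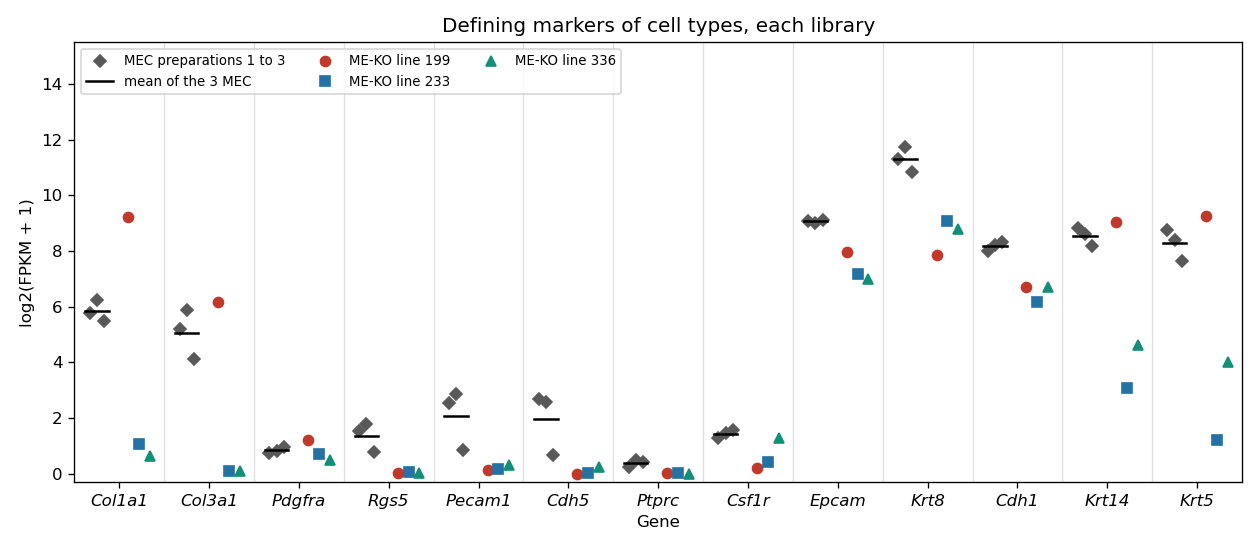
Defining markers of fibroblasts (*Col1a1*, *Col3a1*, *Pdgfra*), pericytes (*Rgs5*), endothelium (*Pecam1*, *Cdh5*), leukocytes (*Ptprc*, *Csf1r*) and luminal (*Epcam*, *Krt8*, *Cdh1*) and basal epithelium (*Krt14*, *Krt5*) in each library, as log2(FPKM + 1). Symbols are as in the plot of the 10 genes. *Epcam* and *Cdh1* are present in all 6 libraries, and *Krt14* and *Krt5* are above all 3 MEC in line 199 (red) and low in lines 233 and 336.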

How the data were processed

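RNA of 3 MEC preparations and 3 ME-KO lines was analysed, 1 library each, grouped by the sample titles. Per the methods, the preparations and the lines are independent of each other. The authors sequenced paired-end reads and trimmed them. Per the labels, the processing tools were Bowtie2, TopHat2 2.0.14, Cufflinks 2.2.1 and Cuffdiff, on GRCm38. The deposited values are FPKM per gene, scaled by the authors to the length of the transcript and the size of the library. FPKM holds no read numbers, so depth is unknown and no detection limit was computed. Summed FPKM per library was 557991 to 638365, with 17343 to 18741 entries above 0. Low values are the least precise.

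Entries with a mean FPKM of at least 1 were tested with limma 3.58.1 in R 4.3.3 on log2(FPKM + 1), allowing for a trend of variance with mean, and p-values were adjusted by Benjamini-Hochberg. The code was tested on simulated data. Fold changes on this scale understate those of low genes. The thresholds are the study's. Single genes were also given an exact permutation test (two-sided). Positions are from GENCODE M21 on GRCm38, with 10 of 10 genes matched, and promoters from RefSeq.

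The 10 genes and the gene lists were chosen with earlier results of these data known. Named are the 10 genes, *Mapk8* and *Mapk9*, set markers of each cell type, the PDGF genes, and up to 3 called genes with the largest decrease and increase per list. *Acta2*, *Tagln*, *Egfl7*, *Krt17*, *Col1a2*, *Serpinf1*, *Cd68*, *Trp63*, *Itgb4* and *Cnn1* were named after their values were seen. So were *Krt18*, *Cldn3*, *Cldn4*, *Cldn7* and *Esrp1*. Otherwise, of the cell type lists only the set markers and the called genes that bear on the members are printed. The alternatives were a pseudocount of 0.1, no expression filter or one at a mean FPKM of 5, quantile and upper-quartile scaling, no trend, sample weights, adjusted p alone, and each library left out in turn. With a library left out, the filter still used the mean of all 6 libraries.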

Additional observations from a re-analysis of the deposited data

How the results depend on the processing

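*Dcn* was called lower under each of the 13 alternatives that tested it (log2 fold change between -4.23, with a pseudocount of 0.1, and -2.0; limma adjusted p between 0.0027 and 0.0489). A filter at a mean FPKM of 5 left it untested, with 0 of 7 tested members called lower, while no filter called 2 of 10 (*Dcn* and *Lum*). Sample weights called 5 of 8 (*Dcn*, *Bgn*, *Sparc*, *Postn* and *Thy1*), and leaving out 1 library gave 1 to 7, the 7 being without line 199. No alternative called a member higher. A pseudocount of 0.1 moved *Thy1* to -4.94, not called. *Lox* turned direction without line 233 (0.27) or line 336 (0.74) and *Pdgfrb* without line 233 (0.13), none of them called, and with 1 library left out *Lox* ranged from -1.45 to 0.74 and *Pdgfrb* from -2.02 to 0.13. Over 111 combinations of a tested member with an alternative, 98 kept their direction and side of the threshold, 10 gained a call, 0 lost one and 3 turned. The other stromal genes called lower numbered 5 with the filter at 5, 29 with weights and 4 to 45 with 1 library left out (4 without MEC 1, 6 without MEC 2, 8 without line 233, 9 without line 336, 45 without line 199). Those called higher numbered 5 with weights and 1 to 5 with 1 library left out. Over all tested entries, 501 were lower with the filter at 5, 1378 lower and 600 higher with weights, and 251 to 1340 lower and 49 to 546 higher with 1 library left out, against 905 and 329. Quantile normalization gave 783 lower and 477 higher, a share of 37.9% higher against 26.7%. The causes were not tested. No paired analysis was possible because the groups share no replicate numbers.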

Other observations

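The genes described here and in the next paragraph were chosen after their values were seen, and none was called by limma. Several fibroblast and mesenchymal genes outside the 10 had, like *Bgn*, their highest value of the 6 libraries in line 199. *Cd248*, which encodes the fibroblast and pericyte surface protein endosialin, was at 2.61, 4.50 and 3.02 FPKM in MEC, at 36.7 in line 199 and at 0.0686 and 0.0532 in lines 233 and 336. *Loxl1*, a lysyl oxidase needed for elastic fibers, was at 3.17, 4.12 and 6.32 FPKM in MEC, at 30.04 in line 199 and at 0.0638 and 0.0217 in the other lines. The homeobox gene *Prrx1* was at 4.47, 5.36 and 1.14 FPKM in MEC, at 15.4 in line 199 and at 0.0415 and 0.0719 in the others. *Twist1* was at 0.895, 1.21 and 1.03 FPKM in MEC and at 13.7, 0.0193 and 3.75 in lines 199, 233 and 336, so line 336 was above MEC here, while both of these lines were below MEC for *Cd248*, *Loxl1* and *Prrx1*.

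Other matrix genes, also not called, differed from this. *Spp1*, which encodes osteopontin, was at 154, 194 and 101 FPKM in MEC, at 58.3 in line 199 and at 734 and 675 in lines 233 and 336. *Fbln2*, which encodes fibulin 2, was above all 3 MEC in every line, at 304, 278 and 65.8 FPKM in lines 199, 233 and 336 against 49.98, 47.2 and 47.8 in MEC. *Efemp1*, which encodes fibulin 3, was also above all 3 MEC in every line, and line 233 was its highest, at 121 FPKM against a MEC mean of 2.73.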
